A study of Sus scrofa with 32 samples.

Results

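The genes described here are those of oxidative phosphorylation, the 53 of 25322 pig gene IDs whose symbol begins with NDUFA, NDUFB, NDUFC, NDUFS, NDUFV, SDH, UQCR, COX or ATP5 or is CYC1 or CYCS. NDUFA6 and the NDUFAF assembly factors were left out. A symbol was found for 11804 of the gene IDs, and the choice used names only, not measured values. The rule takes 87 symbols from the table of gene names, and the genes of the other 34, among them CYC1, NDUFS3, NDUFV2, COX6A2 and COX7A1, were not analysed here. Of the 53 genes, 19 encode subunits of complex I, 4 of complex II, 6 of complex III, 6 of complex IV and 5 of ATP synthase, 1 encodes cytochrome c (CYCS), and 3 are the complex IV subunits COX1, COX2 and COX3, which mitochondrial DNA encodes. The other 9 share the letters but are not subunits: COX10, COX15, COX16, COX17, COX18, SDHAF2, ATP5IF1, COX7A2L and NDUFA4L2.

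Oxidative phosphorylation takes place in the inner membrane of mitochondria. Complex I oxidizes NADH and complex II, which is also an enzyme of the tricarboxylic acid cycle, oxidizes succinate, and both pass electrons through ubiquinone to complex III, from there by cytochrome c to complex IV, and so to oxygen. Complexes I, III and IV pump protons, and ATP synthase makes ATP as the protons return. Oxidative (slow) muscle fibres hold more mitochondria than glycolytic (fast) fibres, and pig loin and ham muscles are mostly of the fast kind.

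RNA was sequenced from the longissimus dorsi (LD, a loin muscle) and the semimembranosus (S, a ham muscle) of 16 gilts, 8 of the Pulawska breed (PUL) and 8 of the Polish Landrace breed (PL), with 1 library of each muscle of each pig, 32 in all. PUL is a native Polish breed and PL a lean white breed. All 16 pigs were females of 180 days by the labels, unrelated, from different farms, fed alike at one test station and fasted before slaughter, and none was given a treatment. The study fed the pigs to a common body weight, reports faster daily gain in PL and treats age at slaughter as a trait that varies. The age is therefore given here as a label only, and any age difference between the breeds cannot be told apart from breed. The labels mark every PUL pig as of high and every PL pig as of low shear force, so breed and this label cannot be told apart. The study describes the texture of the breeds' meat the other way round, so it is given here as a label only. The 4 groups are PUL LD, PL LD, PUL S and PL S, each of 8 libraries, and pigs are called here by the number in the labels.

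Counts summed to between 12142279 and 23620212 per library in LD and between 8821273 and 24761853 in S, and the totals of the breeds did not pass a two-sided exact permutation test of the difference in means (p = 0.939 for LD and p = 0.466 for S). Levels are given as CPM, a count scaled to a common library total after TMM scaling, and mean levels of several genes are means of log2(CPM + 0.5). Together the 41 nuclear-encoded subunits (cytochrome c counted with them) took 0.766% to 1.803% of a library's counts and COX1, COX2 and COX3 took 1.301% to 10.48%. The S library of PL pig 14 stood apart with the 1.301%, and the levels of complex IV and of COX1, COX2 and COX3 are given with and without it. Of the skeletal muscle markers, ACTA1, NEB and DES had rows and summed to at least 37600 CPM in every library. Of 12 hepatocyte genes, 9 had rows, and their sum ranged from 8.06 to 149 CPM in PUL LD and from 22.3 to 1429 CPM in PUL S, but did not pass 33.7 CPM in PL. In LD the sum was 30.3 to 149 CPM in PUL pigs 1 to 5 and 8.06 to 20.9 CPM in the other 3 PUL pigs, while in S the ranges overlapped, at 25.1 to 1429 and 22.3 to 65.3 CPM. The counts and medians of each comparison that uses them are also given without PUL pigs 1 to 5.

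By TMM scaling the mean level of the nuclear-encoded subunits was lowest in PUL LD and highest in PUL S, with both PL groups between, but PL LD was the lowest by library size alone (7.81 against 7.84 in PUL LD) and without PUL pigs 1 to 5 (7.89 against 7.93 ± 0.40, n = 3). Their mean log2 level was 7.75 ± 0.34 (SD, n = 8) in PUL LD and 7.89 ± 0.23 in PL LD, and 8.07 ± 0.10 in PUL S and 7.96 ± 0.13 in PL S. The groups overlapped in every pair, and the spread between pigs was widest in PUL LD, from 7.36 to 8.38, and narrowest in PUL S, from 7.94 to 8.26. Complex by complex PUL LD was lowest for complexes I, III and IV, ATP synthase and cytochrome c by TMM scaling, while PL LD was lower for complexes I and III by library size alone, and for complex I (7.43 against 7.50 ± 0.40) without PUL pigs 1 to 5, where ATP synthase was at 8.97 ± 0.59 in PUL LD against 8.96 in PL LD. Complex I, the NADH dehydrogenase, had a mean log2 level of 7.30 ± 0.35 in PUL LD and 7.61 ± 0.13 in PUL S, against 7.43 ± 0.24 and 7.47 ± 0.11 in PL. Complex IV, the oxidase that passes electrons to oxygen, stood at 7.76 ± 0.29 in PUL LD and 8.17 ± 0.12 in PUL S, against 7.94 ± 0.37 and 8.002 ± 0.32 in PL, the last 8.10 ± 0.18 (n = 7) without pig 14. Within PL pigs its S minus LD was 0.06 ± 0.56, and 0.20 ± 0.43 (n = 7) without pig 14. ATP synthase stood at 8.73 ± 0.47 in PUL LD, and in the other groups between 8.96 ± 0.30 and 9.10 ± 0.10. Complex II departed from this order at the low end, since its PUL LD mean of 7.94 ± 0.34 lay beside the PL LD mean of 7.90 ± 0.26. Cytochrome c departed from it at the high end, with 9.02 ± 0.31 in PUL S beside 9.04 ± 0.23 in PL S. Without PUL pigs 1 to 5 (n = 3), PUL S lay below PL S for complex III (8.27 against 8.35). ATP synthase (9.02 against 9.09) and cytochrome c (8.69 against 9.04) did the same, while complexes I, II and IV stayed higher in PUL S. No test was made of these means, and levels are not compared between complexes, since gene lengths were not used.

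**Figure D1:**
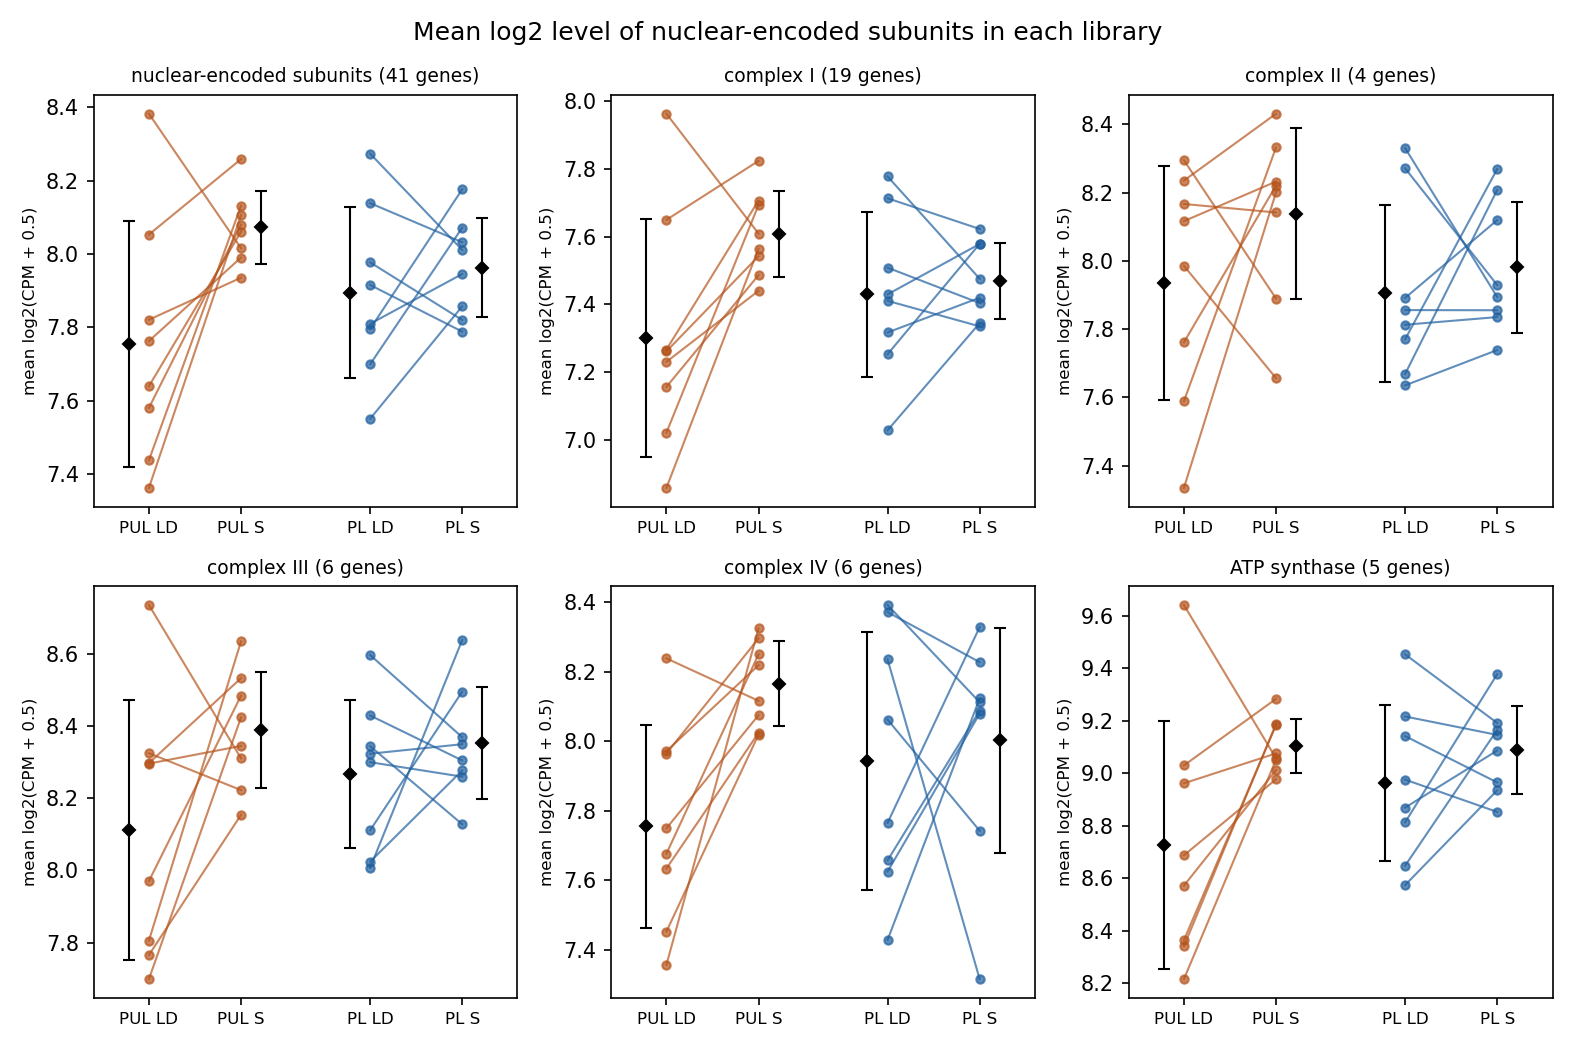
Mean log2(CPM + 0.5) of the nuclear-encoded subunits, all 41 and by complex, in each of the 32 libraries; lines join the LD and S library of a pig (orange PUL, blue PL), and black diamonds with bars are the group mean and SD (n = 8). For the 41 genes, 7 of 8 PUL lines and 4 of 8 PL lines go up from LD to S, and the PUL line that goes down is pig 13.

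The first question was whether the breeds differed in LD. None of the 53 genes was called there (adjusted p at or under 0.05 and a fold change of at least 1.3; edgeR's quasi-likelihood test with Benjamini-Hochberg adjustment over 10792 genes), where the share of all tested genes called was 0%. DESeq2 and edgeR's exact test called none of the 53 either, against 0.176% and 0.12% of all genes. At an unadjusted p under 0.05 there were 2 of the 53, against 7.15% of all genes. In direction, 40 of the 53 were higher in PL, against 50.8% of all genes, with a median log2 fold change (PL over PUL) of 0.12 against 0.01 over all genes. With single libraries left out this median was between 0.06 (without PUL pig 2) and 0.23 (without PUL pig 13). All 6 nuclear complex IV subunits and all 5 of ATP synthase were on the higher side, and 3 of the 4 of complex II were on the lower. By library size alone 19 of the 53 were higher in PL, a scaling that moved the median of all genes to -0.18, and relative to that median the members lay at 0.16, against 0.11 by TMM. Without PUL pigs 1 to 5, 23 were higher in PL, with a median of -0.05 against 0.05 over all genes. The count at an unadjusted p under 0.05 was between 0 and 4 with single libraries left out.

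By size, the LD differences of COX3 and COX2 came first among the 53 genes and that of COX1 sixth, the mitochondrial DNA encoded subunits that form the core of complex IV. COX1, which holds the site where oxygen is reduced, ranged from 14880 to 31560 CPM in PUL LD (median 24400) and from 20300 to 39120 CPM in PL LD (median 31350). COX2, which takes electrons from cytochrome c, ranged from 4368 to 9581 CPM in PUL LD (median 6253) and from 5058 to 15180 CPM in PL LD (median 8301). COX3 ranged from 3337 to 15270 CPM in PUL LD (median 7393) and from 7371 to 14740 CPM in PL LD (median 11850). The breeds overlapped for all 3 genes, and 4 PL libraries for COX1, 3 for COX2 and 0 for COX3 lay above the highest PUL library. Their log2 fold changes were 0.37 (SE 0.21), 0.51 (SE 0.24) and 0.54 (SE 0.27), with adjusted p of 0.74, 0.691 and 0.711 in edgeR's test. The 10 other protein genes of mitochondrial DNA lay on the same side, 10 of 10 higher in PL with a median log2 fold change of 0.49, and 2 of them, ND2 and ND4L, had an unadjusted p under 0.05. The smallest p of the 53 in LD was that of COX18, an assembly factor that helps to insert COX2 into the membrane. It was at a low level of 0.773 to 1.24 CPM in PUL LD (median 1.01) and 1.12 to 1.70 CPM in PL LD (median 1.36). Its log2 fold change was 0.44 (SE 0.20, adjusted p = 0.679), and 5 of 8 PL libraries were above the highest PUL library.

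In S most of the nuclear genes were on the lower side in PL. None of the 53 was called, with 0% of 10687 genes called by edgeR's quasi-likelihood test, and 0.964% by DESeq2 and 0.533% by the exact test, neither of which called a member. At an unadjusted p under 0.05 there were 6 of the 53, against 11.7% of all genes, 5 of them lower in PL, against 6.33% of all genes in that direction. Of the 53, 37 were lower in PL, against 47.4% of all genes, with a median log2 fold change of -0.10 against 0.02 over all genes. By complex, 15 of 19 genes of complex I, 4 of 4 of complex II, 5 of 6 of complex III and 5 of 6 of complex IV were lower in PL, while ATP synthase was divided 2 lower and 3 higher. In the fit of single genes COX1, COX2 and COX3 were all higher in PL, with a median log2 fold change of 0.06. The 10 other protein genes of mitochondrial DNA were also higher in PL in S, 10 of 10, with a median of 0.53. Of these 10, ND4L and ATP8 had an unadjusted p under 0.05. By library size alone 20 genes were higher in PL and by TMM 16. Without PUL pigs 1 to 5, 23 were higher in PL and the median was -0.03 against 0.07 over all genes. The count at an unadjusted p under 0.05 was 3 without PUL pig 3 or PUL pig 17 and 11 without PL pig 14, against 6.

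Complex I subunits had the smallest p in S. NDUFA11, an accessory subunit of the membrane arm, ranged from 120 to 181 CPM in PUL S (median 155) and from 83.0 to 143 CPM in PL S (median 117.5). NDUFS6, an accessory subunit near the NADH-binding end, ranged from 82.4 to 149 CPM in PUL S (median 129) and from 71.3 to 114 CPM in PL S (median 93.5). For both genes the lower PUL libraries lay among the PL libraries, so the groups overlapped. The log2 fold changes were -0.38 (SE 0.13) for NDUFA11 and -0.39 (SE 0.14) for NDUFS6, with adjusted p of 0.3 and 0.336. NDUFB10 and NDUFB7, subunits of the membrane arm, were lower in PL by -0.24 (SE 0.10) and -0.29 (SE 0.13) on the log2 scale, with adjusted p of 0.375 and 0.397. SDHAF2, the factor that attaches FAD to SDHA, lay in the same direction at -0.42 (SE 0.16, adjusted p = 0.344). Without PUL pigs 1 to 5 NDUFB10 was at -0.36 and SDHAF2 at -0.23.

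UQCRC2, a core subunit of complex III, was the only one of the 6 that was higher in PL, and also the gene with the largest S difference of the 53. It ranged from 82.8 to 186 CPM in PUL S (median 125) and from 114 to 219 CPM in PL S (median 177.5), a log2 fold change of 0.43 (SE 0.18, adjusted p = 0.373). In LD it ranged from 58.6 to 194.5 CPM in PUL (median 112) and from 94.6 to 266 CPM in PL (median 167), a log2 fold change of 0.41 (SE 0.24, adjusted p = 0.758). The breeds overlapped in both muscles, and the interaction of breed and muscle for UQCRC2 was 0.01 (SE 0.26). The other core subunit, UQCRC1, and the iron-sulfur subunit UQCRFS1 had log2 fold changes of -0.09 (SE 0.15) and -0.05 (SE 0.13) in S. UQCRC2 had the largest spread of complex III, with an SD of log2 level of 0.48 over the 32 libraries. None of the 53 genes separated the 2 breeds without overlap in either muscle, where 0.0173% of 11563 genes did in LD and 0.0951% in S.

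**Figure D2:**
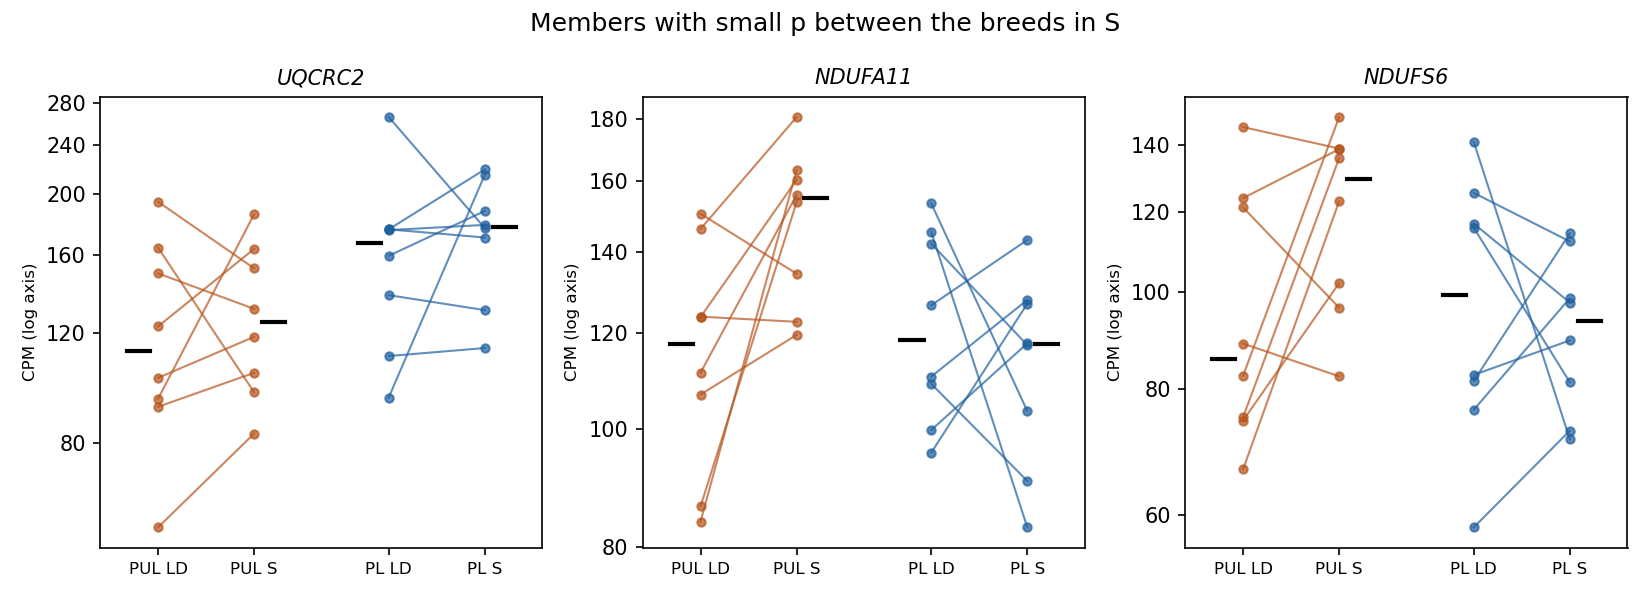
CPM (log axis) of UQCRC2, NDUFA11 and NDUFS6 in each library; lines join the LD and S library of a pig (orange PUL, blue PL), and black bars are group medians. UQCRC2 has the higher median in PL in both muscles, NDUFA11 and NDUFS6 have the higher median in PUL in S, and all groups overlap.

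Between the muscles of PUL nearly all the genes lay on one side. The comparison was made within pigs, with the pig as a block in 1 fit of all 32 libraries (edgeR's quasi-likelihood test, 11563 genes). S was higher than LD for all 41 nuclear-encoded subunits and for 52 of the 53 genes, against 48.1% of all genes, and the median log2 fold change (S over LD) was 0.31 against -0.01 over all genes. None of the 53 was called, with 0.0259% of all genes called, and the smallest adjusted p of the 53 was 0.304. At an unadjusted p under 0.05 there were 19 of the 53, all higher in S, against 3.71% of all genes in that direction and 6.56% in either. They were 9 of the 19 complex I genes, 3 of the 6 of complex IV (COX4I1, COX5B and NDUFA4), 3 of the 5 of ATP synthase (ATP5MC1, ATP5MC3 and ATP5F1A), CYCS, COX1, COX2 and ATP5IF1, while complexes II and III had none. DESeq2 with the same block called 2 of the 53, NDUFB10 and COX4I1, with 0.683% of all genes called. Genes are not independent of each other here, since they are measured in the same libraries.

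NDUFB10, a subunit of the membrane arm of complex I, had the smallest p. It was at 162, 125, 215, 142, 160, 145, 151 and 160 CPM in the LD of PUL pigs 1, 2, 3, 4, 5, 13, 16 and 17, and at 186, 184, 226, 207, 173, 222, 216 and 229 CPM in their S. Every PUL pig was higher in S, and only the LD library of pig 3 reached into the range of the S libraries. The log2 fold change was 0.39 (SE 0.11, unadjusted p = 0.00157, adjusted p = 0.304 in edgeR and 0.0204 in DESeq2), and without PUL pigs 1 to 5 it was 0.54. In PL, LD ranged from 149 to 230 CPM (median 188) and S from 161 to 198 CPM (median 173), with 2 of 8 pigs higher in S and a log2 fold change of -0.09 (SE 0.11). All 8 PUL pigs were higher in S for 3 of the 53 genes, NDUFB10, COX8A and ATP5IF1, against 0.804% of all genes.

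COX4I1, the common form of the subunit that binds the regulatory nucleotides of complex IV, was at 559, 508, 1045, 472, 496, 886, 657 and 624.5 CPM in the LD of the same PUL pigs and at 812, 1061, 1227, 967, 851, 811, 864 and 923 CPM in their S. The 8 S libraries lay above 6 of the LD libraries, and pig 13 alone was lower in S. Its log2 fold change was 0.56 (SE 0.15), with an unadjusted p of 0.0018 and an adjusted p of 0.304 in edgeR and 0.0333 in DESeq2, and without PUL pigs 1 to 5 it was 0.27. In PL it ranged from 515 to 1055 CPM in LD (median 682) and from 596 to 1147 CPM in S (median 704.5), with 5 of 8 pigs higher in S and a log2 fold change of 0.06 (SE 0.15). COX5B, a subunit of the matrix side that binds zinc, ranged from 313 to 618 CPM in PUL LD (median 380.5) and from 509 to 653 CPM in PUL S (median 585), a log2 fold change of 0.50 (SE 0.15, adjusted p = 0.391), and of 0.32 without PUL pigs 1 to 5. Here 7 of 8 PUL pigs and 5 of 8 PL pigs were higher in S. ATP5IF1, the protein that keeps ATP synthase from running in reverse, ranged from 264 to 430 CPM in PUL LD (median 309) and from 336.5 to 515 CPM in PUL S (median 446), a log2 fold change of 0.44 (SE 0.13, adjusted p = 0.391).

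**Figure D3:**
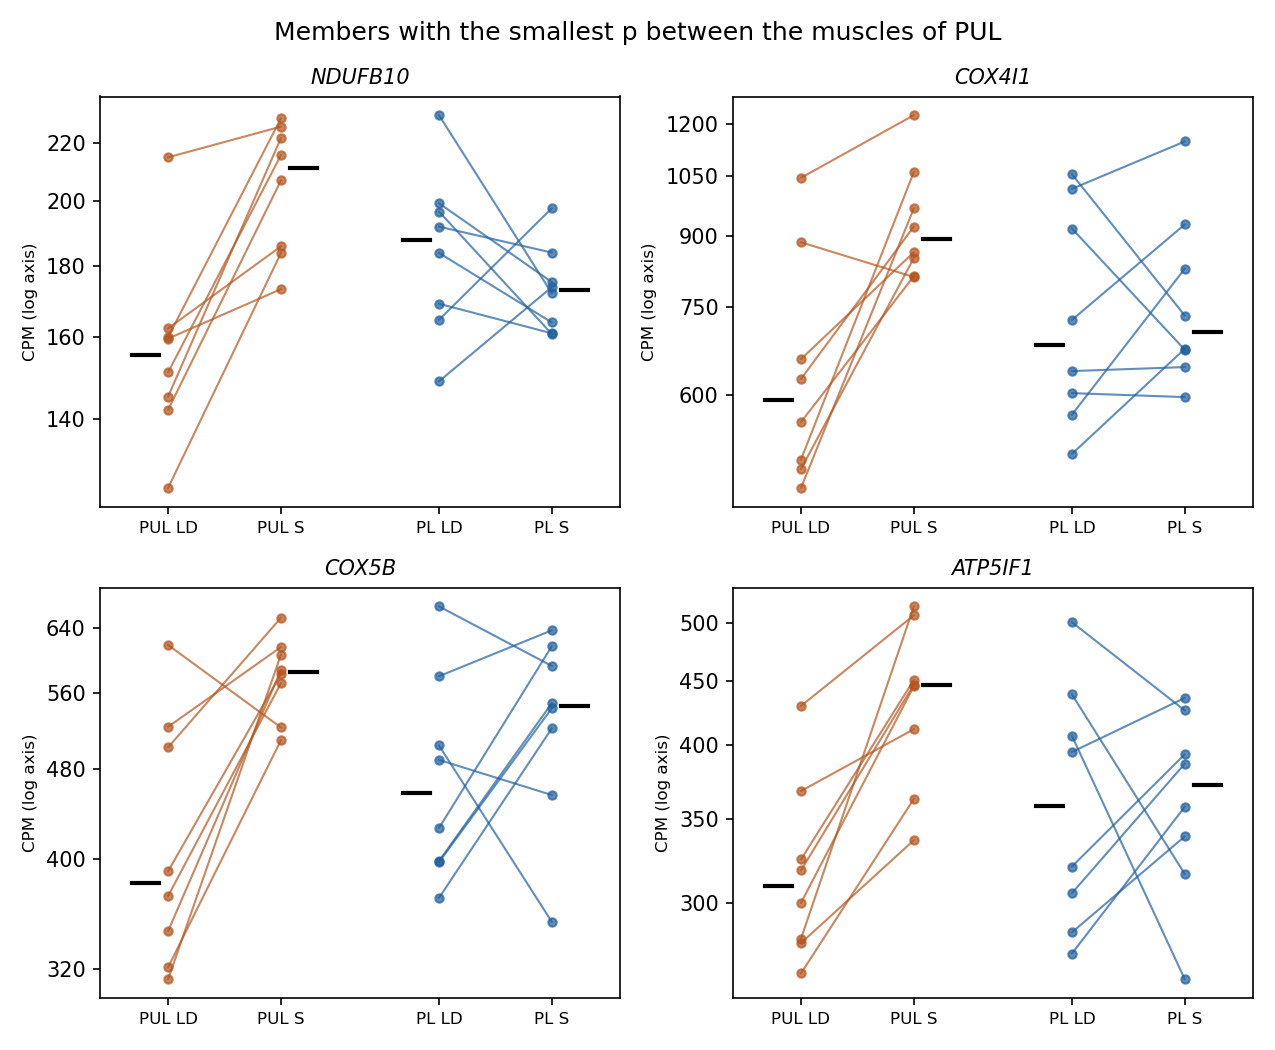
CPM (log axis) of NDUFB10, COX4I1, COX5B and ATP5IF1 in each library; lines join the LD and S library of a pig (orange PUL, blue PL), and black bars are group medians. All 8 PUL lines of NDUFB10 and ATP5IF1 and 7 of those of COX4I1 and COX5B go up from LD to S, while in PL 2, 5, 5 and 5 of 8 do so in the order NDUFB10, ATP5IF1, COX4I1 and COX5B.

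The other genes of note in PUL were spread over the complexes. In complex I, NDUFB7 had a log2 fold change of 0.38 (SE 0.12), NDUFA8 of 0.38 (SE 0.14), NDUFB9 of 0.41 (SE 0.16), NDUFV1, which binds NADH, of 0.42 (SE 0.20) and NDUFS1, the largest iron-sulfur subunit, of 0.15 (SE 0.21). NDUFB9 varied most in complex I, from 246 to 981 CPM in PUL LD alone. Complex II had the smallest median of the complexes, 0.22, with log2 fold changes of 0.24 (SE 0.25) for the flavoprotein SDHA, 0.21 (SE 0.15) for the iron-sulfur subunit SDHB, and 0.27 (SE 0.15) and 0.09 (SE 0.15) for the membrane anchors SDHC and SDHD. SDHA, which was higher in S in 4 of 8 PUL pigs, was the most variable of these, with 137 to 387 CPM in PUL LD (median 267) and 185 to 398 CPM in PUL S (median 295). In ATP synthase, the subunit c genes ATP5MC1 and ATP5MC3, whose products form the rotating ring, had log2 fold changes of 0.48 (SE 0.18) and 0.42 (SE 0.18), ATP5F1A, the alpha subunit, of 0.38 (SE 0.17), and ATP5ME, the most variable gene of the complex, of 0.34 (SE 0.18). Cytochrome c (CYCS) ranged from 282 to 573 CPM in PUL LD (median 398) and from 396 to 638 CPM in PUL S (median 538), with 7 of 8 pigs higher in S. The genes that are not subunits took less part, with a median log2 fold change of 0.07 over the 9, and COX10, which makes heme a precursors for complex IV, was at most 3.21 CPM and was at 0 in at least 1 library of each group.

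The PUL pigs did not contribute alike. Over the 41 nuclear-encoded subunits, the mean difference between S and LD (log2) was 0.74 in pig 2, 0.695 in pig 4, 0.50 in pig 5, 0.42 in pig 17, 0.23 in pig 16, 0.21 in pig 3, 0.11 in pig 1 and -0.37 in pig 13. All 41 genes were higher in S in pigs 2 and 4, and 3 of 41 in pig 13. The LD library of pig 13 was the highest PUL LD library for 28 of the 41 genes, that of pig 2 the lowest for 18, and that of pig 4 was above the group median for none. The mean was 0.45 ± 0.28 (SD, n = 5) in pigs 1 to 5 and 0.09 ± 0.41 (n = 3) in the other 3. Without pigs 1 to 5, 37 of the 53 genes were higher in S, the median log2 fold change was 0.06 and 1 gene had an unadjusted p under 0.05. Leaving out single pigs, the count at an unadjusted p under 0.05 was 6 without pig 4, 8 without pig 2, 12 without pig 17 and 35 without pig 13, against 19. The slow fibre markers with rows (MYL3, TNNC1, CSRP3, TNNI1 and TNNT1) were all on the higher side in S in PUL, with a median log2 fold change of 0.56 and none at an unadjusted p under 0.05, and summed to 288 to 18100 CPM in PUL LD and 1938 to 15730 CPM in PUL S. The 4 fast fibre markers with rows were also on the higher side, with a median of 0.22. The part of the hepatocyte transcripts and of the fibre markers in the difference of the 53 genes was not tested.

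In PL, 38 of the 53 genes were higher in S, against 49.4% of all genes, with a median log2 fold change of 0.07. Without PL pig 7, 27 were higher, with a median of 6e-04, and with other single pigs left out the count reached 45 and the median 0.10. None of the 53 was called (0% of all genes by edgeR, 0.0346% by DESeq2, which called no member) or had an unadjusted p under 0.05, against 2.29% of all genes. The smallest p was that of ATP5F1A, at 0.28 (SE 0.17), followed by NDUFS1 at 0.32 (SE 0.21), NDUFA8 at 0.17 (SE 0.14), CYCS at 0.19 (SE 0.16) and COX5B at 0.16 (SE 0.15), all with an adjusted p of 1. Over the 41 nuclear genes the difference between S and LD was 0.38 in pig 7, 0.37 in pig 8, 0.31 in pig 15, 0.14 in pig 12, -0.11 in pig 18, -0.13 in pig 10, -0.16 in pig 14 and -0.26 in pig 9. In 4 pigs it was positive and in 4 negative. Pig 9, with the lowest difference, had the highest PL LD library for 21 of the 41 genes. The slow fibre markers had 1 of 5 on the higher side in PL, with a median of -0.19, and the fast fibre markers 0 of 4, with a median of -0.10. By library size alone, 52 of the 53 were higher in S in PL and 47 in PUL, with medians of 0.19 in both breeds. That scaling moved the median of all genes to 0.11 in PL and to -0.13 in PUL. Relative to the median of all genes, the median of the 53 genes was 0.07 in PL and 0.32 in PUL under both scalings.

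**Figure D4:**
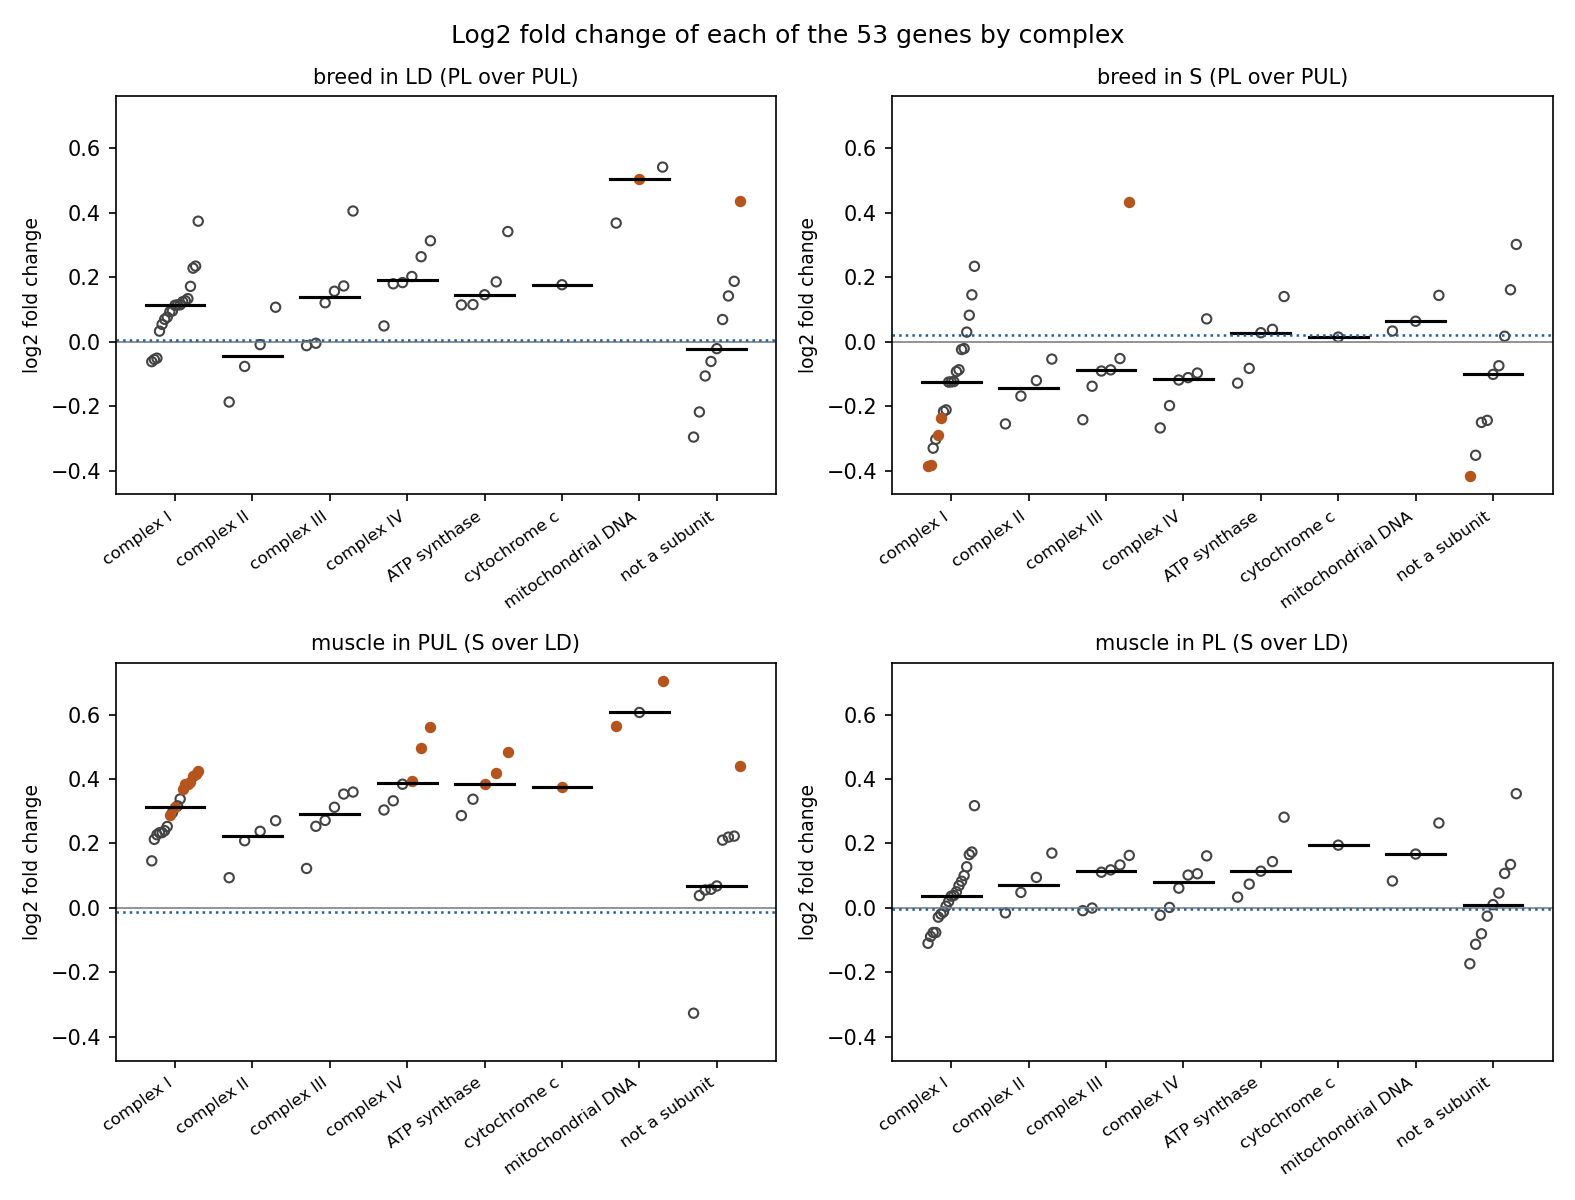
Log2 fold change of each of the 53 genes (circles, sorted within a complex) in the breed comparison of each muscle and the muscle comparison of each breed; filled circles have an unadjusted p under 0.05, black bars are medians of the complex, and the dotted line is the median of all tested genes. In PUL all nuclear-encoded subunits lie above 0 between S and LD, by TMM scaling (by library size alone 47 of the 53 genes do), and no gene has an adjusted p at or under 0.05 in any panel in edgeR's test.

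Whether the muscle difference itself differed between the breeds was tested as the interaction (PL minus PUL of the log2 difference between S and LD). None of the 53 genes was called (0% of 11563 genes by edgeR, and 0.00865% by DESeq2, which called no member), and all 53 had an adjusted p of 1. At an unadjusted p under 0.05 there were 5, NDUFB10, NDUFB7, NDUFA11, COX4I1 and ATP5IF1, against 2.54% of all genes. All 5 were negative, that is, less in favour of S in PL, against 1.61% of all genes in that direction, and 48 of the 53 were so, against 48.2% of all genes, with a median of -0.27. NDUFB10 had an interaction of -0.48 (SE 0.15, unadjusted p = 0.00467), COX4I1 of -0.50 (SE 0.22), NDUFA11 of -0.48 (SE 0.21), ATP5IF1 of -0.43 (SE 0.19) and NDUFB7 of -0.40 (SE 0.16). Without PUL pigs 1 to 5 COX4I1 was at -0.20, NDUFA11 at -0.22 and NDUFB10 at -0.62, and 1 of the 53 genes had an unadjusted p under 0.05. NDUFS1 and NDUFA4L2 were on the other side, at 0.17 (SE 0.30) and 0.68 (SE 0.59). In count, 23 of the 53 were above 0 by library size alone and 23 without PUL pigs 1 to 5, against 5, with medians of -0.03 and -0.01. By library size alone the median of all genes was 0.25, so relative to it the members lay at -0.29 under that scaling and at -0.28 by TMM. The count at an unadjusted p under 0.05 was 1 without PL pig 9 and 13 without PUL pig 13, against 5. The interaction, the breed comparisons and the muscle comparisons use the same libraries, so their directions are not separate evidence.

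Over both breeds, S was higher than LD for 53 of the 53 genes, against 46.4% of all genes, with a median log2 fold change of 0.18 against -0.01. Without PUL pigs 1 to 5, 43 were higher in S, the median was 0.08 and 1 gene had an unadjusted p under 0.05. None was called, with 0.0951% of all genes called by edgeR and 0.562% by DESeq2, which called no member, and 10 had an unadjusted p under 0.05, against 3.28% of all genes in that direction and 5.79% in either. The smallest p were those of COX5B at 0.33 (SE 0.10, adjusted p = 0.458), COX4I1 at 0.31 (SE 0.11, adjusted p = 0.597), ATP5F1A at 0.33 (SE 0.12), NDUFA8 at 0.28 (SE 0.10) and CYCS at 0.29 (SE 0.11). Without PUL pigs 1 to 5 COX4I1 was at 0.17, ATP5F1A at 0.19 and CYCS at 0.12. The median was 0.27 for ATP synthase, 0.23 for complex IV, 0.18 for complexes I and III and 0.16 for complex II. Of these 10 genes, 3 encode ATP synthase subunits (ATP5F1A, ATP5MC1 and ATP5MC3), 3 complex I subunits (NDUFA8, NDUFB9 and NDUFB7) and 2 complex IV subunits, and the others are CYCS and ATP5IF1. With PL pig 14 left out 20 genes had an unadjusted p under 0.05, with PUL pig 13 left out 27, with PL pig 8 left out 5, and with any one of PUL pigs 2, 4 and 17 or PL pig 15 left out 6.

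Over the 32 libraries the SD of the log2 level was 0.78 for COX3, 0.65 for COX2 and 0.51 for COX1, and among the nuclear-encoded subunits it was at most 0.516 (COX7A2). In S, COX1 ranged from 22200 to 51190 CPM in PUL (median 34310) and from 11180 to 56240 CPM in PL (median 37170). COX2 ranged from 5895 to 17220 CPM in PUL S (median 10090) and from 2074 to 16290 CPM in PL S (median 11850). COX3 ranged from 5359 to 18660 CPM in PUL S (median 12560) and from 1633 to 18580 CPM in PL S (median 14980). The lowest PL value of each gene was that of pig 14, and the next lowest were 30110, 8507 and 11260 CPM. The mean log2 level of the 3 genes was 13.33 ± 0.40 in PUL LD, 13.83 ± 0.33 in PL LD, 13.96 ± 0.48 in PUL S and 13.93 ± 0.93 in PL S, the last 14.24 ± 0.27 (n = 7) without pig 14. Within pigs the mean was higher in S in 8 of 8 PUL pigs, by 0.63 ± 0.52, or by 0.28 ± 0.24 (n = 3) without PUL pigs 1 to 5, and in 7 of 8 PL pigs, by 0.10 ± 1.16, or by 0.48 ± 0.41 in 7 of 7 without pig 14. In the fit of single genes, S over LD was 0.57 (SE 0.26) for COX1, 0.70 (SE 0.33) for COX2 and 0.61 (SE 0.33) for COX3 in PUL, with adjusted p of 0.753, 0.754 and 0.814. The 10 other protein genes of mitochondrial DNA lay on the same side in both breeds, 10 of 10 higher in S, with medians of 0.62 in PUL and 0.54 in PL, none at an unadjusted p under 0.05.

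The S library of PL pig 14 was also the lowest of its group for 18 of the 41 nuclear genes and the highest for 8. COX7A2, the common form of a small complex IV subunit, was at 19.5 CPM there against 57.35 to 103.5 CPM in the other PL S libraries. COX8A, another small subunit, was at 20.3 CPM against 41.3 to 69.1 CPM. SDHA, NDUFV1 and COX4I1 were on the contrary highest there, at 533, 360 and 1147 CPM against group medians of 217, 179 and 704.5 CPM. NDUFA4, a complex IV subunit in spite of its name, was lowest there at 540 CPM, and otherwise between 607 and 975 CPM. Its relative NDUFA4L2 was at most 4.25 CPM in any library.

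**Figure D5:**
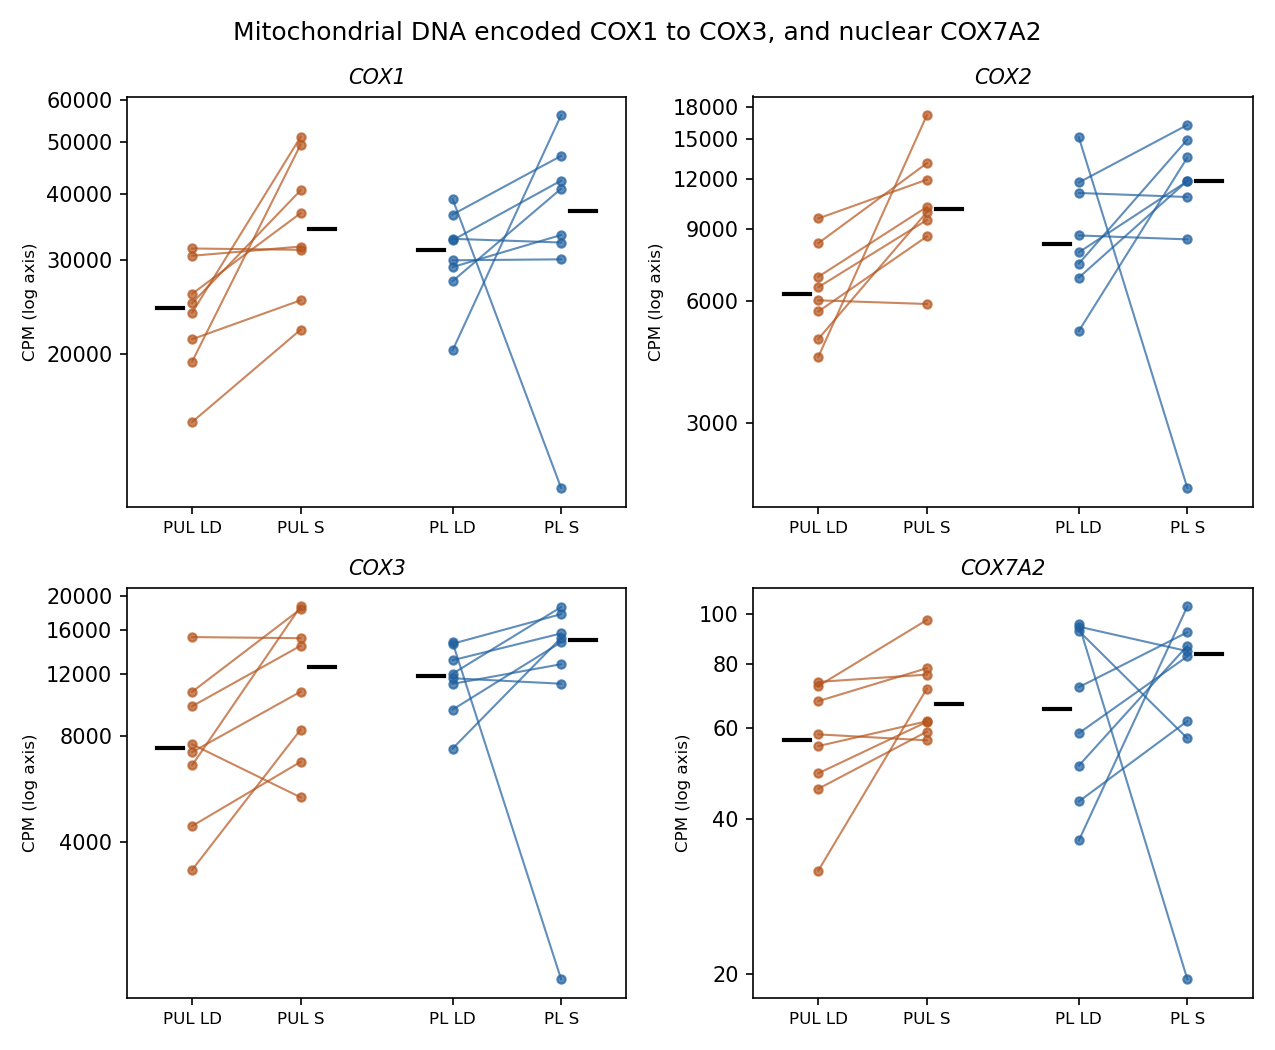
CPM (log axis) of COX1, COX2 and COX3, encoded by mitochondrial DNA, and of the nuclear COX7A2 in each library; lines join the LD and S library of a pig (orange PUL, blue PL), and black bars are group medians. In PL S one library, that of pig 14, lies below all others in all 4 panels, at 11180, 2074, 1633 and 19.5 CPM.

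Neighbouring pathways of mitochondria were described in the same fits. Of 18 further genes of the tricarboxylic acid cycle, 16 had rows and 14 were higher in S in PUL, against 48.1% of all genes. The median log2 fold change of the 16 was 0.15, and 2 (SUCLG1 and FH) had an unadjusted p under 0.05, against 6.56% of all genes. Of 20 genes of fatty acid oxidation, 16 had rows and 13 were higher in S in PUL, with a median of 0.13. Factors that assemble the respiratory chain were divided, 9 of the 18 tested on the higher side, with a median of 0.02. Of the regulators of mitochondrial biogenesis 7 of 14 tested were on the higher side, and SIRT3, a deacetylase of mitochondrial proteins, was at 0.38 (SE 0.14, adjusted p = 0.595). In PL, 11 of 16, 13 of 16, 6 of 18 and 8 of 14 genes of these lists were on the higher side in S, against 49.4% of all genes. None of the genes of these lists was called in any comparison by edgeR's test. DESeq2 called 2 of the 18 assembly factors tested between the breeds in S, against 0.964% of all genes. Fibroblast markers were on the higher side in PL in 4 of 4 tested genes in both muscles, with median log2 fold changes of 1.35 in LD and 1.10 in S. Of 3 tested red blood cell markers, 2 were higher in PL in LD and 1 was lower, at -0.38, with a median of 1.32. All 3 were higher in PL in S, with a median of 1.298. Their part in the breed values of the 53 genes was not tested, and in tissue RNA fewer fibres of a kind and less RNA in each cannot be told apart.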

How the data were processed

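Ribosomal RNA was removed from total RNA of 32 muscle samples and cDNA was sequenced (Illumina). Per the labels and the study's methods, the authors used CASAVA 1.8.2, FastQC, Flexbar, Bowtie 2 and RSEM on the Sscrofa10.2 genome and deposited expected counts per gene, not normalised, which were rounded to whole numbers here. Every sample column of the gene table was used and the isoform table was not used. edgeR 4.0.16 (R 4.3.3) was run with TMM factors, its filter on low counts, the quasi-likelihood test and Benjamini-Hochberg adjustment over all genes tested. Breeds were compared within a muscle without a block. Muscles and the interaction were fitted over all 32 libraries with the pig, from the sample description, as a block. The deviations from group means of the 2 muscles of a pig correlated by -0.52 to 0.69, over 0.1 in 11 of 16 pigs. In only 7 of the 16 pigs did the S library match its own LD library best within the breed. The pairing therefore rests on the labels. A call needed an adjusted p at or under 0.05 and a fold change of at least 1.3 (the interaction, the p alone). Named genes were those called, the 5 smallest p of each comparison, tissue forms of a subunit, chosen core subunits and the most variable gene of each complex, and genes named for PL pig 14 or for an unadjusted p were chosen after their values were seen. The genes and lists were chosen with earlier results of these data known. DESeq2 1.42.0, edgeR's exact test, other scalings, filters and blocks, and fits without single pigs were alternatives. Scripts were tested on simulated data. The p-values of the breed comparisons measure the spread between pigs, 1 library of each muscle. Those of the muscle comparisons and the interaction measure how the difference between the muscles of a pig varied from pig to pig.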

Additional observations from a re-analysis of the deposited data

Results flagged for a closer look

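A library was set against the other 7 of its group for each of 41 values, the levels of the named genes and the mean levels of the complexes, by the gap to its nearest neighbour over the range of the group (Dixon's test). Its critical value was passed in 8 of 164 groups, and chance passes about 1 in 20 groups. Of the 8, 6 were low values of the S library of PL pig 14. There the mean log2 level of COX1, COX2 and COX3 was 11.71 against 13.89 in the next lowest library. COX1 was at 11180 CPM against 30110, COX2 at 2074 CPM against 8507 and COX3 at 1633 CPM against 11260. The nuclear complex IV genes COX7A2, at 19.52 CPM against 57.35, and COX8A, at 20.33 CPM against 41.34, were low in the same library. In PUL LD, the ATP synthase subunit c gene ATP5MC3 was high in pig 13, at 716.7 CPM against 349.9 in the next library. In PUL S, the complex I gene NDUFA8 was high in pig 2, at 309.7 CPM against 263.7. The cause of these values was not tested.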

How the results depend on the processing

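The genes with the 5 smallest p of each comparison kept their direction under every setting. In edgeR's quasi-likelihood fits no gene of the 53 was called under any scaling, filter, block or left-out pig. The median of the 53 between the breeds in LD did change sign. It was 0.12 in the main fit, -0.05 without PUL pigs 1 to 5 and -0.02 by library size alone. DESeq2 called 2 of them between the muscles of PUL. The number with a log2 fold change above 0 between the breeds in LD was 40, and was 23 without PUL pigs 1 to 5 and 19 by library size alone, where all genes shift and the median of the members relative to all genes was 0.16 against 0.11 by TMM. In S it was 16, 23 without PUL pigs 1 to 5, and 10 to 18 with single libraries left out, the lowest without PL pig 7. For the interaction it was 5, and was 23 by library size alone, 23 without PUL pigs 1 to 5 and 3 to 8 with single pigs left out, the lowest without PUL pig 13 or PL pig 7 and the highest without PUL pig 2 or 4. With a pseudocount of 1 CPM the mean log2 level of the 9 genes that are not subunits was 3.92 in PUL LD, 3.93 in PL LD, 4.03 in PUL S and 3.94 in PL S. The level of cytochrome c in PUL S was 9.02, and 8.69 without PUL pigs 1 to 5. The cause of these moves was not tested, except that the pseudocount adds to low levels by construction. The fits without PUL pig 13 or PL pig 14, and the levels without pig 14 or PUL pigs 1 to 5, were chosen after seeing the data where they concern means over complexes.

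Without the pig as a block, the median log2 fold change between the muscles was 0.25 in PUL and 0.05 in PL, and 14 genes in PUL had an unadjusted p under 0.05. With the number in the sample titles as a block between the breeds, the median was 0.14 in LD and -0.10 in S, with 0 and 4 genes at an unadjusted p under 0.05. Deviations of PUL and PL libraries with the same title number correlated by -0.31 to 0.55. Whether these numbers mark anything shared was not tested. The block changed no call of the 53 genes.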
